A study of Mus musculus with 6 samples.

Results

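Kdm6b and the Polycomb repressive complex 2 (PRC2) were followed across cultured mouse cortical neurons labelled as Kdm6b knockout (KO) or wild type (WT). The 10 genes were taken by name, Kdm6b together with the PRC2 genes Ezh1, Ezh2, Eed, Suz12, Rbbp4, Jarid2, Mtf2, Phf19 and Aebp2, and all 10 were found among the 20040 gene entries measured. The KO group consisted of 3 libraries labelled KDM6B KO and the WT group of 3 libraries labelled wild type, all from cortex of C57BL/6 embryos at embryonic day 18, dissociated with papain and grown as neuronal cultures. The labels do not give the deleted part of Kdm6b, a Cre driver or other allele, the days in culture, the number or sex of embryos per library, or whether replicates came from separate cultures. All p-values therefore describe the variation among 6 libraries, part or all of which may be technical.

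Methylation of lysine 27 on histone H3 marks silenced developmental genes. PRC2 writes this mark through a catalytic subunit, EZH1 or EZH2, held with EED and SUZ12 and the histone-binding protein RBBP4, and accessory subunits steer the complex to CpG-rich chromatin. KDM6B, also called JMJD3, removes the mark, as does KDM6A, and in the developing cortex the balance of the writer and the erasers is known for its part in the timing of neuron production.

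Expression was given as TPM, a transcript level scaled by gene length and to a sum of 1000000 in each library. Levels of different genes can be compared only as far as the gene lengths used hold. Whole counts recovered from the values added up to between 19761740 and 23503684 per library. A factor common to the 6 counts of a gene cannot be seen in them and was set to the smallest that gave a whole gene length. The true counts may therefore be higher, and counting errors given below hold for the recovered counts. Neuron markers dominated the marker lists, with a summed level of 6432 to 6556 TPM in KO and 6158 to 6233 TPM in WT for 8 genes. These genes did not move together. In the limma test 2 were called higher in KO, Tubb3 at 111.9% and Nefm at 112.6% of WT. Rbfox3 was called lower, at 87.0% of WT. Of all tested genes 4.15% were called higher and 6.74% lower. The cultures also held other cells: 7 astrocyte genes summed to 1440 to 1556 TPM in KO and 1494 to 1506 TPM in WT. Of these, 1 was called higher, Slc1a3 at 111.9% of WT, and 1 lower, Aldh1l1 at 86.6%. Radial glia and progenitor genes, 8 in the list, summed to 3162 to 3323 TPM in KO and 2992 to 3245 TPM in WT. Oligodendrocyte lineage genes, 7 in the list, summed to 652.9 to 679.9 TPM in KO and 650.4 to 688.2 TPM in WT. By contrast, 6 of 7 microglia genes had a mean under 0.5 TPM over the 6 libraries. The groups differed in sex-linked RNA. The Y-linked gene Ddx3y averaged 0.135 TPM in KO and 26.1 TPM in WT, and Xist, expressed from the inactive X chromosome, 231.5 TPM in KO and 74.0 TPM in WT. A different sex mix and the genotype therefore cannot be told apart in any comparison below.

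Kdm6b fell in KO and was the single member called by the limma test. Its locus lies on the minus strand of chromosome 11 from 69398508 to 69413675 (GRCm38). The level was 11.2, 11.1 and 12.0 TPM in KO replicates 1, 2 and 3, against 30.9, 30.3 and 30.7 TPM in WT replicates 1, 2 and 3. The KO libraries lay close together and far below all WT libraries. Kdm6b averaged 11.4 ± 0.536 TPM in KO and 30.6 ± 0.279 TPM in WT (SD, n = 3 each), 37.3% of the WT level, from 1643 counts over the KO libraries and 4386 over the WT libraries. The log2 fold change on log2(TPM + 0.5) was -1.39 (95% interval -1.50 to -1.27; limma adjusted p = 1.1e-05). In bulk samples such as these, fewer cells of a type and less RNA per cell cannot be told apart. This gene-level value adds up all exons, so it does not say which of the remaining KO transcripts could still encode the demethylase. The antisense gene Kdm6bos overlaps Kdm6b exons and is not analysed here, and because strand use in the counting is not given in the sources used here, its reads cannot be told apart from those of Kdm6b. Without any 1 library the log2 fold change stayed between -1.42 and -1.36.

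**Figure D1:**
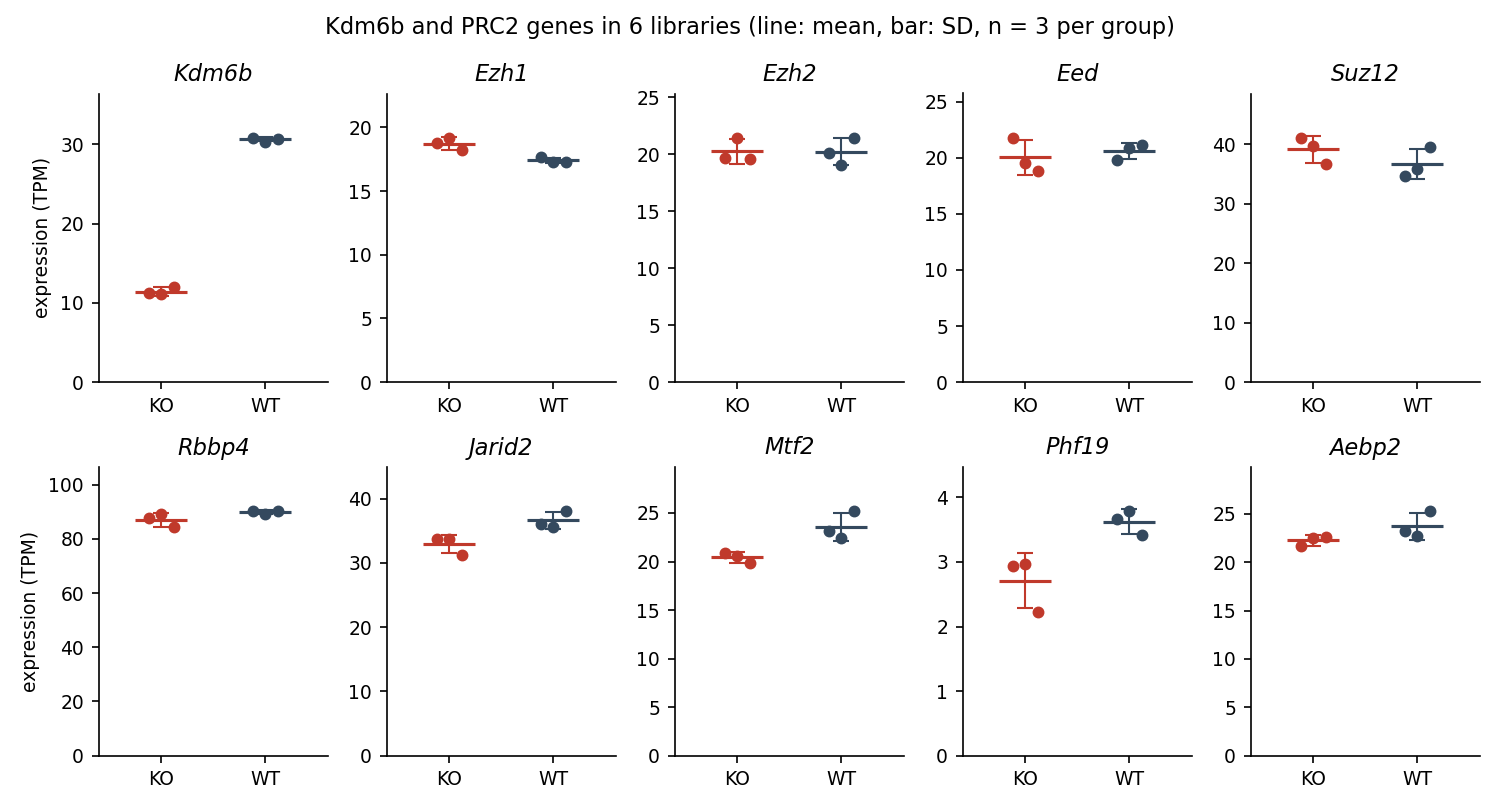
Expression in TPM of the 10 genes in each library, KO left and WT right, with points for libraries, a line at the mean and a bar of 1 SD (n = 3 per group); every vertical axis starts at 0. Kdm6b has 11.1 to 12.0 TPM in KO and 30.3 to 30.9 TPM in WT. The KO means of the PRC2 genes lie between 74.8% of WT for Phf19 and 107.6% for Ezh1.

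Of the other demethylase genes of this family, 1 rose and 1 fell, where 4.15% of all tested genes were called higher and 6.74% lower. KDM6A is the X-linked paralogue of KDM6B, and UTY is its Y-linked counterpart with weak demethylase activity. Kdm6a held 26.9, 26.3 and 28.3 TPM in KO, against 22.8, 23.1 and 24.5 TPM in WT. It rose to 115.8% of WT (log2 fold change 0.21 ± 0.05 SE; limma adjusted p = 0.033), without overlap between the groups. That call was kept in only 1 of the 6 fits that left out a library, the fit without WT replicate 3, with adjusted p up to 0.115 in the others. Uty rested on 3, 1 and 1 counts in KO replicates 1, 2 and 3, against 297, 272 and 346 counts in WT replicates 1, 2 and 3. Uty thus stood at 0.548% of WT, and the other Y-linked genes listed, Ddx3y, Eif2s3y and Kdm5d, at 0.518%, 0.361% and 0.468%. Kdm6a lies on X and Uty on Y, so for this pair genotype and sex mix cannot be told apart.

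Summed over Kdm6b, Kdm6a and Uty, the family had 38.2, 37.3 and 40.4 TPM in KO, against 61.6, 60.9 and 64.1 TPM in WT. Kdm6b made up 29.6% ± 0.256 of that sum in KO and 49.3% ± 1.15 in WT (SD, n = 3 each; exact permutation p = 0.1, two-sided, the smallest possible with 3 libraries against 3). With Uty left out of the sum the Kdm6b share was 29.6% ± 0.235 in KO and 56.6% ± 0.959 in WT. Kdm6a thus supplied most of the demethylase transcripts in KO, while in WT without Uty it supplied the smaller part.

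**Figure D2:**
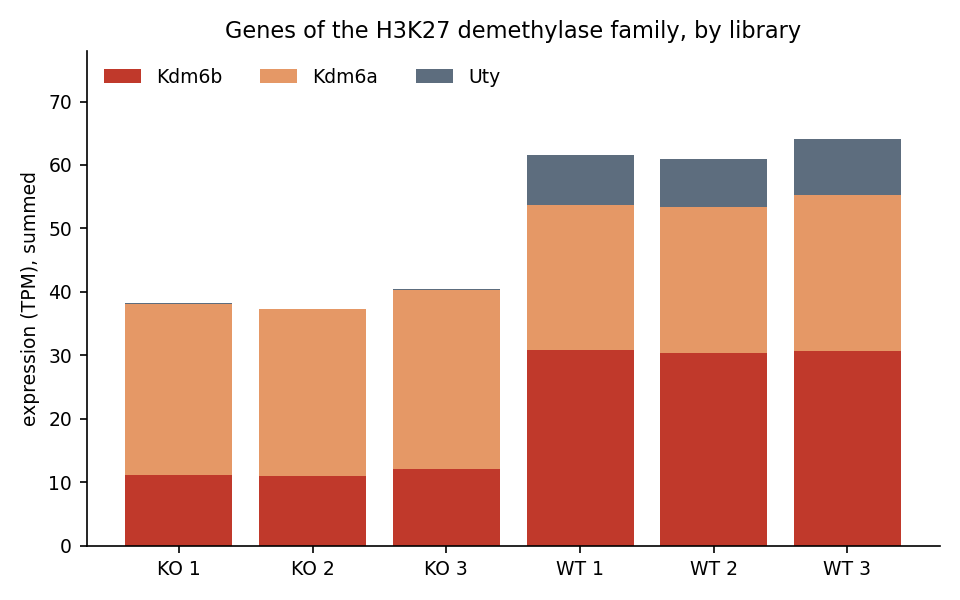
Summed expression in TPM of Kdm6b, Kdm6a and Uty, stacked, for KO replicates 1 to 3 and WT replicates 1 to 3. The sum is 37.3 to 40.4 TPM in KO and 60.9 to 64.1 TPM in WT, with nearly no Uty in KO.

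The PRC2 genes are spread over the genome (GENCODE M21, GRCm38), with Ezh1 at chr11:101191115-101226463, Ezh2 at chr6:47530139-47595341, Eed at chr7:89954654-89980983 and Rbbp4 at chr4:129307100-129335370. Suz12 lies at chr11:79993106-80034123, Jarid2 at chr13:44729474-44921643, Mtf2 at chr5:108065674-108109004, Phf19 at chr2:34893757-34914026 and Aebp2 at chr6:140622663-140678472. None of the 9 PRC2 genes passed the test between KO and WT in either direction (limma on log2(TPM + 0.5), Benjamini-Hochberg over 14983 genes). The background share called was 10.9% of all tested genes. At an unadjusted p under 0.05 there were 3 of the 9, Mtf2, Jarid2 and Phf19, where 26.5% of all genes reached it. With limma voom on the recovered counts 2 passed, Mtf2 and Jarid2, both lower in KO, where 17.5% of all genes passed. The median log2 fold change of the 9 was -0.05, against -0.02 over all tested genes, and the KO and WT libraries did not overlap for 5 of the 9, where 31.7% of all tested genes had that property. By role, the mean levels of Ezh1, Ezh2, Eed, Suz12 and Rbbp4 lay between 96.8% and 107.6% of WT, and those of Jarid2, Mtf2, Phf19 and Aebp2 between 74.8% and 93.8%. Whether these roles differ was not tested.

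**Figure D3:**
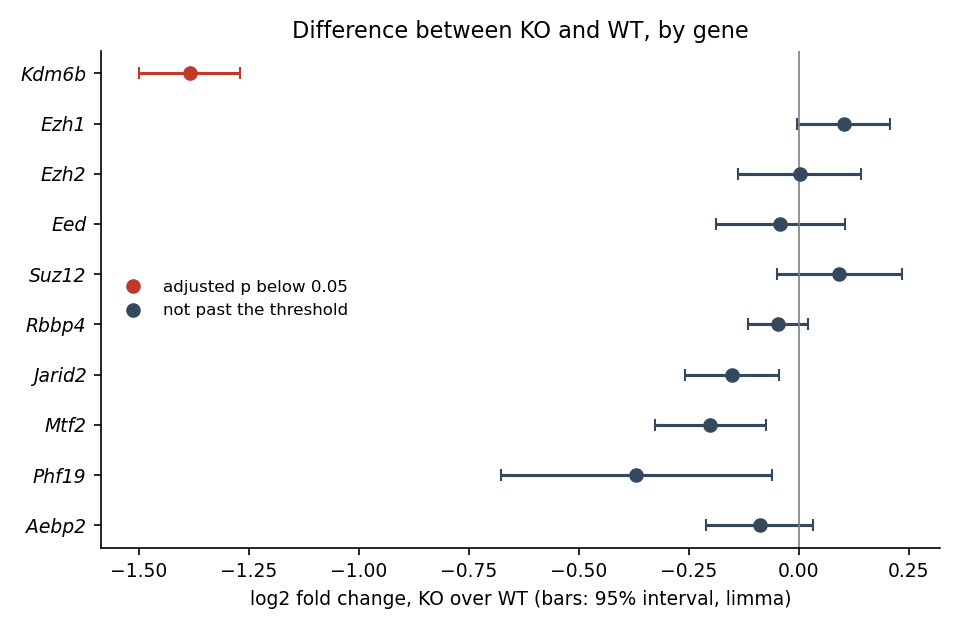
Log2 fold change of KO over WT for the 10 genes, with 95% intervals from limma; red marks an adjusted p below 0.05 and the vertical line no difference. Kdm6b stands at -1.39, and the intervals of Jarid2, Mtf2 and Phf19 lie below 0 although their adjusted p did not pass.

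The catalytic subunits were expressed at nearly equal levels in TPM. This closeness rests on the gene lengths behind the values, recovered as 2667 bases for Ezh2 and 4194 for Ezh1. Annotated exons add up to 6678 bases for Ezh2 and 7440 for Ezh1, and levels with those lengths were not computed. Ezh2, the form with the stronger methyltransferase activity and the one typical of dividing progenitors, had 19.7, 21.5 and 19.6 TPM in KO, against 20.1, 19.1 and 21.4 TPM in WT. The groups overlapped throughout, and Ezh2 averaged 20.3 ± 1.06 TPM in KO and 20.2 ± 1.17 TPM in WT (SD, n = 3 each). The 95% interval of its level in KO ran from 90.9% to 110.3% of WT on the log2(TPM + 0.5) scale (limma adjusted p = 0.99). Ezh1, the form that persists in cells that have stopped dividing, had 18.8, 19.2 and 18.2 TPM in KO, against 17.7, 17.3 and 17.3 TPM in WT. All KO libraries were above all WT libraries, as for 12.5% of all tested genes, and Ezh1 stood at 107.6% of the WT mean, but the interval of 99.8% to 115.5% included no difference (limma adjusted p = 0.20).

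Ezh2 made up 51.1%, 52.8% and 51.9% of the summed Ezh1 and Ezh2 level in KO, against 53.3%, 52.5% and 55.3% in WT. This ratio within a library does not depend on the scaling of the library, but its size depends on the gene lengths used. Its groups overlapped (difference -1.78 percentage points; exact permutation p = 0.2, two-sided). Without WT replicate 3 the difference was -0.983 percentage points. Dividing cells were present: 10 genes of the cell cycle summed to 274.6 to 291.9 TPM in KO and 293.4 to 299.5 TPM in WT, with 0 of 10 past the limma test, where 10.9% of all tested genes passed. Mki67, a marker of cycling cells, averaged 27.7 TPM in KO and 29.2 TPM in WT. Their part in the Ezh1 and Ezh2 levels was not tested.

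The start regions of the catalytic pair are shown because the paralogues differ in sequence there although their levels in TPM are close. RefSeq windows (GRCm38.p6, 250 bases before to 50 after the annotated start) were found for 9 of the 10 genes, all but Kdm6b. Capitals mark a match to TTTNGCGC, a form of the binding motif of E2F factors, the regulators of cell cycle genes, searched on both strands. The Ezh2 window is chr6:47594981-47595280 and the Ezh1 window chr11:101226414-101226713, both on the minus strand and written 5′ to 3′ along the gene.
Ezh2: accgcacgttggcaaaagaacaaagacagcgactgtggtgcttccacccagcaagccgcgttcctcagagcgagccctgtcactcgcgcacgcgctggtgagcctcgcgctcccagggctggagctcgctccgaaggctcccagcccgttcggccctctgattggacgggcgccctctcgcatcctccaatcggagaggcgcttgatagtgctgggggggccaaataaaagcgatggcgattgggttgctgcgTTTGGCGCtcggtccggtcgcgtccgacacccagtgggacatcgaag
Ezh1: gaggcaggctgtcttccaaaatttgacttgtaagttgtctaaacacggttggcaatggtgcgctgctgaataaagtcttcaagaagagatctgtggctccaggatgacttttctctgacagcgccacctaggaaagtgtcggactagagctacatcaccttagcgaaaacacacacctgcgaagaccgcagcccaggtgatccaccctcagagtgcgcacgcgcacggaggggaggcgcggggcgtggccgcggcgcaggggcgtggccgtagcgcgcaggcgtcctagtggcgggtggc
The Ezh2 window held 1 such match and 3 matches to CCAAT, and the Ezh1 window held no match to either. Among 32851 windows of the same length, 1.38% held TTTNGCGC and 37.4% held CCAAT, a shorter motif also searched on both strands, whose matches do not overlap the capitals above. Ezh2 was the single member with a TTTNGCGC match, CCAAT occurred in windows of 7 members, and the palindromic motif of the factor NRF1 occurred in no member's window and in 0.971% of all windows. Other forms of the E2F motif were not searched, so windows of other members may hold them. The windows of Ezh2 and Ezh1 had 31 and 23 CG dinucleotides, where the median window had 7. A match describes letters in this window and is no evidence of binding.

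None of the other core genes passed the test. Suz12, the scaffold of the complex, had 41.1, 39.7 and 36.7 TPM in KO, against 34.7, 35.8 and 39.6 TPM in WT. Its groups overlapped, with a KO level between 96.6% and 117.6% of WT at 95% confidence. Eed, which reads the methyl mark and stimulates the enzyme, had 21.8, 19.5 and 18.8 TPM in KO, against 19.8, 20.9 and 21.2 TPM in WT. Its interval was 87.8% to 107.5%, and the adjusted p-values were 0.40 for Suz12 and 0.74 for Eed (limma). Rbbp4, a histone chaperone that also serves other chromatin complexes, was the most abundant member, with 87.6, 89.4 and 84.4 TPM in KO, against 90.3, 89.3 and 90.3 TPM in WT. The best measured of the members, on 2458 to 3114 counts per library, it had an interval of 92.3% to 101.5% of WT (limma adjusted p = 0.38). Exons of Rbbp4 overlap those of Sync, and exons of Eed those of E230029C05Rik, but these neighbours averaged 0.873 and 0.786 TPM in KO and 1.26 and 1.02 TPM in WT.

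The accessory subunit genes had lower means in KO, and none passed the limma test. Mtf2, which encodes a Polycomb-like protein that binds CpG-rich DNA and brings PRC2 there, had 20.9, 20.5 and 19.8 TPM in KO, against 23.1, 22.4 and 25.2 TPM in WT. Every KO library was below every WT library, at 86.7% of the WT mean (log2 fold change -0.20 ± 0.05 SE; limma adjusted p = 0.057). Mtf2 passed the limma test when the filter was raised to 2 TPM (adjusted p = 0.047) and with voom on recovered counts (adjusted p = 0.011), and its adjusted p ranged from 0.011 to 0.153 over all alternatives. Some of its exons overlap those of Tmed5 on the opposite strand, a gene with 17.8 ± 0.622 TPM in KO and 18.7 ± 0.463 TPM in WT (SD, n = 3 each).

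Phf19, another Polycomb-like protein gene, was the member with the lowest expression. It had 2.94, 2.97 and 2.22 TPM in KO, against 3.67, 3.79 and 3.42 TPM in WT, and all KO values were below all WT values. These levels rest on 79, 88 and 55 counts in KO replicates 1, 2 and 3 and on 96 to 98 counts per WT library, so that counting error alone is 13.5% at 55 counts. Its KO mean was 74.8% of WT, with a log2 fold change of -0.37 (95% interval -0.68 to -0.06; limma adjusted p = 0.12). Without KO replicate 3 the log2 fold change was -0.25.

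Jarid2 and Aebp2 encode the accessory subunits of the second form of the complex, PRC2.2, while MTF2 and PHF19 belong to PRC2.1. Jarid2, a DNA-binding relative of the histone demethylases that has no demethylase activity itself, had 33.7, 33.8 and 31.2 TPM in KO, against 36.1, 35.6 and 38.1 TPM in WT. The groups did not overlap, and the KO mean was 89.9% of WT (log2 fold change -0.15 ± 0.05 SE; limma adjusted p = 0.078, or 0.025 with voom on recovered counts, and 0.025 to 0.192 over all alternatives). Aebp2, a zinc finger protein gene, had 21.6, 22.6 and 22.6 TPM in KO, against 23.2, 22.7 and 25.3 TPM in WT. Its KO libraries also lay below the WT libraries, by a narrow gap, at 93.8% of WT (interval 86.4% to 102.3%; limma adjusted p = 0.34). Its log2 fold change was -0.09, and -0.04 without WT replicate 3. A position of KO below WT without overlap, seen for these 4 members of 9, was found in 19.2% of all tested genes.

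**Figure D4:**
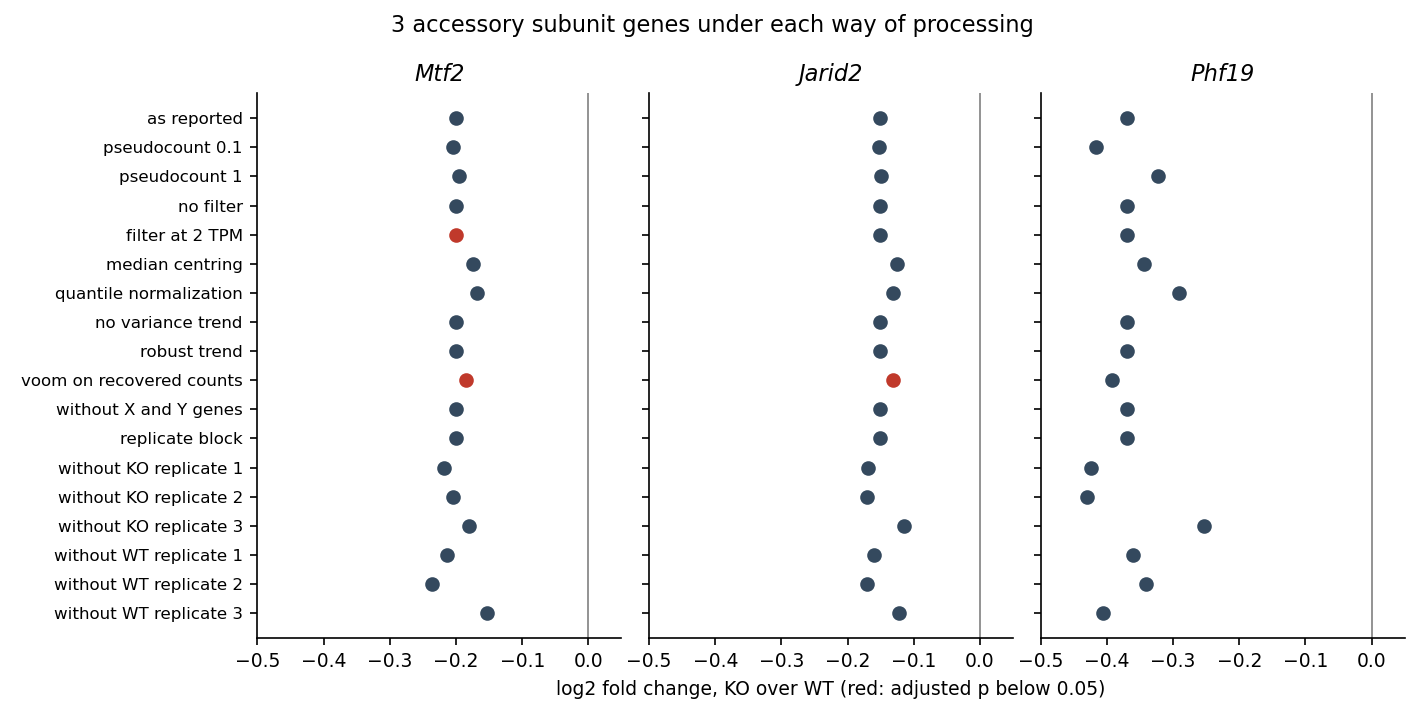
Log2 fold change of KO over WT for Mtf2, Jarid2 and Phf19 under the reported analysis and each alternative, with red for an adjusted p below 0.05 and a vertical line at no difference. All points lie below 0; Mtf2 is red with a filter at 2 TPM and with voom, and Jarid2 with voom.

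Among Mtf2, Phf19, Phf1, Jarid2 and Aebp2, the balance between the complex forms depended on whether Phf1 was counted. Mtf2, Phf19 and Phf1, a further Polycomb-like gene, summed to 40.3, 41.6 and 38.4 TPM in KO, against 42.5, 43.4 and 45.4 TPM in WT. Jarid2 and Aebp2 summed to 55.4, 56.3 and 53.9 TPM in KO, against 59.3, 58.3 and 63.4 TPM in WT. Mtf2, Phf19 and Phf1 thus held 42.1% ± 0.406 of the summed level of these accessory genes in KO and 42.1% ± 0.537 in WT (SD, n = 3 each). With Phf1 left out the share was 29.5% ± 0.542 in KO and 31.1% ± 0.0749 in WT (SD, n = 3 each; exact permutation p = 0.1, two-sided, the smallest possible), and the groups did not overlap. Phf1 itself averaged 17.0 TPM in KO and 16.6 TPM in WT. Epop, Lcor and Lcorl, further accessory genes, were in neither sum, and a share with them was not computed. Epop averaged 15.9 TPM in KO and 18.6 TPM in WT. Lcorl averaged 21.1 TPM in KO and 25.3 TPM in WT, and Lcor 7.68 TPM in KO and 7.74 TPM in WT.

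The start region of Mtf2 is shown because this gene came closest to the threshold among the PRC2 members. The RefSeq window at chr5:108065424-108065723 (GRCm38.p6, plus strand) is the first of its 2 annotated starts, and none of its letters match TTTNGCGC, so it is printed without capitals.
Mtf2: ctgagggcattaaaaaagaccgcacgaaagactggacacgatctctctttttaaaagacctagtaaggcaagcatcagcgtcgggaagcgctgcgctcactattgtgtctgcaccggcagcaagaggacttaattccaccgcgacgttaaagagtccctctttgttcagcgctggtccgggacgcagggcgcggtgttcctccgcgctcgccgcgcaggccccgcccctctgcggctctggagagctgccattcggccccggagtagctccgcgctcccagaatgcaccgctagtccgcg
It held 30 CG dinucleotides, while the window at the second Mtf2 start held 2. Among the other members with 1 window each, Phf19, Rbbp4, Suz12 and Eed had 38, 39, 41 and 17 CG dinucleotides.

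Kdm6b stood at a different place in the order of levels in each group. In KO the order was Rbbp4, Suz12, Jarid2, Aebp2, Mtf2, Ezh2, Eed, Ezh1, Kdm6b and Phf19, with Kdm6b at rank 9. In WT it was Rbbp4, Suz12, Jarid2, Kdm6b, Aebp2, Mtf2, Eed, Ezh2, Ezh1 and Phf19, with Kdm6b at rank 4. Neighbours whose ranges over libraries overlapped were Mtf2 with Ezh2, Ezh2 with Eed and Eed with Ezh1 in KO, and Suz12 with Jarid2, Aebp2 with Mtf2 and Eed with Ezh2 in WT. Relative to the writers, Kdm6b had 0.291, 0.272 and 0.318 TPM per TPM of Ezh1 and Ezh2 together in KO, against 0.817, 0.834 and 0.793 in WT.

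Over 5 lists of related genes 5 of 42 tested genes were called, where 10.9% of all tested genes were called. Of these calls Kdm6a, Uty and Rbbp7 lie on X or Y. Without X and Y genes 0 list genes were called higher and 2 lower. In that setting 595 of all 14480 tested genes were called higher and 967 lower. Of 6 other PRC2 subunit and accessory genes 5 could be tested, of which 1 fell and 4 did not pass, where 6.74% of all tested genes were called lower. Rbbp7, the X-linked paralogue of Rbbp4, had 207.9, 210.3 and 200.4 TPM in KO, against 227.7, 227.4 and 220.7 TPM in WT. It fell to 91.5% of WT (limma adjusted p = 0.023), but kept the call in only 2 of 6 fits that left out a library, those without KO replicate 2 and without WT replicate 3, with adjusted p up to 0.0874 in the others, and lost it after median centring (limma adjusted p = 0.051). Rbbp7 lies on X, so here too sex mix and genotype cannot be told apart.

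PRC1 binds the PRC2 mark and ubiquitinates histone H2A. Of its 22 genes 2 fell, none rose and 20 did not pass, where 6.74% of all tested genes were called lower. Cbx6, which encodes a chromobox protein, a reader of the methylated lysine, had 194.9, 197.2 and 198.8 TPM in KO, against 232.0, 231.2 and 223.6 TPM in WT, or 86.0% of WT (log2 fold change -0.22 ± 0.02 SE; limma adjusted p = 0.0017). Cbx6 kept its call in each of the 17 alternatives. The ubiquitin ligase genes Ring1 and Rnf2 stood at 97.8% and 101.9% of WT.

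Of 9 genes of the MLL3/MLL4 complex, which places activating methyl groups and contains KDM6A, none passed with limma, 2 had an unadjusted p under 0.05 and 1, Kmt2d, passed with voom. Among all tested genes these shares were 10.9% with limma, 26.5% at an unadjusted p under 0.05 and 17.5% with voom. Kmt2d averaged 22.8 TPM in KO and 25.6 TPM in WT (limma adjusted p = 0.070), and Rbbp5 29.0 TPM in KO and 31.1 TPM in WT (adjusted p = 0.17). Of 4 genes listed for the removal of ubiquitin from histone H2A, Bap1 and Asxl1 to Asxl3, none passed with limma or voom. None had an unadjusted p under 0.05, to be read against the same shares of all tested genes. The smallest p in that list belonged to Asxl2, at 91.4% of WT (limma adjusted p = 0.21), and to Asxl1, at 98.9% (adjusted p = 0.81).

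**Figure D5:**
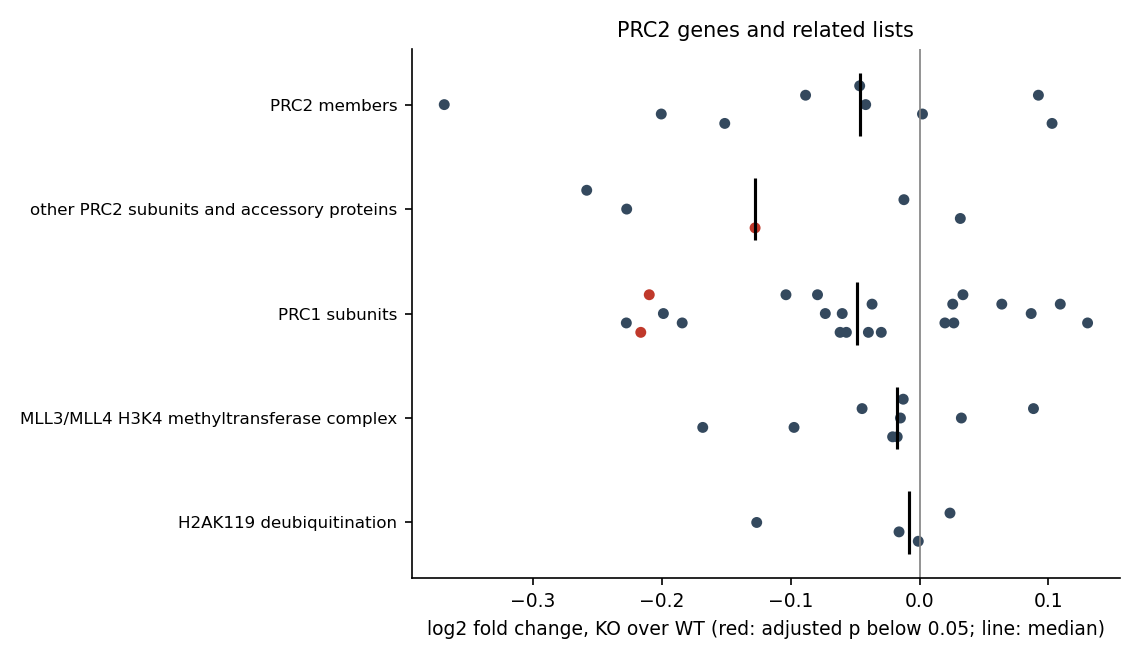
Log2 fold change of KO over WT for the PRC2 members and 4 related gene lists, 1 point per tested gene, red for an adjusted p below 0.05 and a black line at each list's median. Rbbp7 and Cbx6 are among the red points, and the median of the PRC2 members is -0.05.

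The expression profile most like that of Kdm6b over the 6 libraries belonged to Neurod1, a transcription factor gene of neuronal differentiation. Likeness was the root mean square difference between mean-centred log2(TPM + 0.5) values. It was compared over 10930 genes whose mean reached 5 TPM and whose name is not that of a clone, predicted model or short RNA. Neurod1 differed by 0.066 and averaged 6.76 TPM in KO and 17.4 TPM in WT. The next were Slc30a3, the zinc transporter gene of synaptic vesicles, at 0.080, Nrn1, encoding neuritin, at 0.083, the neuropeptide gene Vip at 0.180 and Akr1c14 at 0.206. With 6 libraries in 2 groups this measure mainly finds genes whose difference between the groups is about the size of that of Kdm6b.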

How the data were processed

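The authors' deposited values are TPM per gene for 6 mRNA libraries, although the table is named for FPKM; each library sums to 1000000. The submitters' processing notes name the build mm10 and, without roles, featureCounts, TopHat, edgeR, bcl2fastq 2.17, Picard 1.127 and FastQC 0.11.2. The sources used here give no annotation, strand setting or scaling step. TPM divides by a library-wide total, so abundant genes that rise lower all others.

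Each TPM value was a whole multiple of 1 step per library and gene length, which returned integers for each of the 19369 entries above 0 (tolerance 0.001 counts plus 2e-07 of the value). A factor common to all 6 counts of a gene was set to the smallest that gave a whole gene length, and a larger one would stay hidden. The integers gave depth, counting error and the voom alternative.

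The 14983 genes whose mean reached 0.5 TPM were compared on log2(TPM + 0.5) with limma 3.58.1 in R 4.3.3 (trended variance, no covariates, two-sided, Benjamini-Hochberg over all tested genes, threshold 0.05). In simulated libraries for KO against WT over 14963 genes, 16 of 49 genes changed 1.2-fold, 37 of 50 changed 1.5-fold and 44 of 49 changed 2-fold were found. Differences of the size seen in most PRC2 genes can therefore be missed. The simulation changed fewer genes than were called in the data. It drew them from all tested genes and gave all genes the same dispersion, so its rates need not hold for the members. Gene positions come from the GENCODE M21 annotation (GRCm38, which is mm10). Epop and Ezhip were matched through RefSeq synonyms. Members and lists were chosen with earlier results of these data known. Named genes are the members, list genes that passed (or the 2 with the smallest p), and the 5 profiles most like Kdm6b; the values of 1 PRC1 gene that passed are not reported here. Replicate numbers did not pair the libraries: deviations of same-numbered libraries correlated between -0.0511 and 0.0110.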

Additional observations from a re-analysis of the deposited data

How the results depend on the processing

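Kdm6b kept its direction and its call in all 17 alternatives, with log2 fold changes between -1.42 and -1.35. No PRC2 gene was called higher in any alternative. The count called lower was 1 with a filter at 2 TPM and 2 with voom on recovered counts, and 0 in each fit that left out a library. Ezh2 and Eed, which lay near 0, changed sign without some single libraries: Ezh2 ranged from -0.040 to 0.044 and Eed from -0.10 to 0.0017. Asxl1 turned to 0.0096 after median centring, 0.0064 after quantile normalization and 0.0037 with voom. Of genes in the 5 related lists, 1 was higher and 4 lower. The count higher was 0 without the variance trend, 2 with voom, 0 without X and Y genes, 0 with the replicate block and 0 to 1 when single libraries were left out. The count lower was 2 without X and Y genes, a setting that removes Kdm6a, Uty, Rbbp7 and Scml2 from the lists. Epop and Lcorl were close to the threshold (limma adjusted p = 0.056 and 0.058).

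Over all genes, 622 were higher and 1010 lower. Without the variance trend 406 were higher and 658 lower; the counts were 1295 and 1325 with voom, and 360 and 585 with the replicate block, where the numbers do not pair the libraries. Leaving out WT replicate 1 gave 345 and 493, WT replicate 2 407 and 644, KO replicate 1 386 and 667, KO replicate 2 354 and 589, and KO replicate 3 365 and 589; without WT replicate 3 they were 440 and 678. The share of calls that were higher was 38.1%, against 53.1% after median centring and 49.2% after quantile normalization. The median of tested genes was 0.03 lower in KO on the log2 scale. The difference in Kdm6b share, KO minus WT, was -19.7 percentage points, or -27.0 without Uty. The difference in the share of Mtf2, Phf19 and Phf1 among the summed accessory genes was 0.02 points, or -1.53 without Phf1. Leaving out Uty or Phf1 changes the sum that the share is taken of. The causes of the other shifts were not tested. With 55 to 98 counts per library, depth limits Phf19 most.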

Other observations

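The neighbourhood of Kdm6b was read as well. GENCODE places 14 genes within 100 kb of it on chromosome 11, of which 8 were in the data and 7 were tested. None passed with limma or with voom, and none had an unadjusted p under 0.05, where the shares of all tested genes were 10.9%, 17.5% and 26.5%. Their KO levels lay between 87.7% and 102.1% of WT, with Chd3, a chromatin remodeller gene, at 378.9 ± 6.19 TPM in KO and 387.8 ± 7.18 TPM in WT (SD, n = 3 each). Tmem88, the neighbour too low to be tested, averaged 0.207 TPM in KO and 0.496 TPM in WT.

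Some marker lists of non-neuronal cells differed between the groups. Of 5 fibroblast and meningeal genes 3 rose, where 4.15% of all tested genes were called higher, and the list summed to 45.1 to 57.6 TPM in KO and 35.2 to 36.3 TPM in WT. Lum, a matrix proteoglycan gene, averaged 3.45 TPM in KO and 0.941 TPM in WT (limma adjusted p = 0.0013). Among 8 radial glia and progenitor genes, 7 of them tested, Vim and Nes fell, Nes to 32.3 TPM in KO, against 45.4 TPM in WT, and Vim to 317.8 TPM in KO, against 440.1 TPM in WT, while Fabp7 rose to 2743 TPM in KO, against 2509 TPM in WT; 6.74% of all tested genes were called lower and 4.15% higher. The part of such cells in the PRC2 levels was not tested.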
